A study of Homo sapiens with 2 samples.

Results

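The 10 genes described here encode parts of the Notch pathway: the receptors NOTCH1, NOTCH2 and NOTCH3, the ligands JAG1 and JAG2, the protease ADAM10, the DNA-binding factor RBPJ, the ubiquitin ligase DTX2 and the target genes HES1 and HEY1. They were chosen by name, with earlier results of these data known, and all 10 were present among the 51773 gene symbols analysed. Transcripts were measured by RNA-seq in 22Rv1 cells, an established line of castration-resistant prostate cancer. The shCON library came from cells with a short hairpin RNA vector as control and the shEIF3F library from cells whose hairpin targets EIF3F, so each group holds 1 library. The product of EIF3F, eIF3f, is a subunit of the eIF3 complex, which starts translation. Without replicates there is no spread to set a difference against, and no error or p-value was computed. Loss of EIF3F and any other action of this hairpin cannot be told apart.

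Notch receptors sit at the cell surface and are activated by Jagged or Delta-like ligands on a neighbouring cell. Ligand binding lets ADAM proteases and then gamma-secretase cut the receptor, and the freed intracellular part enters the nucleus, binds RBPJ and switches on genes such as HES1 and HEY1, which encode repressors of transcription. The eIF3f protein has been reported to remove ubiquitin from activated Notch before it reaches the nucleus, with a Deltex protein as a bridge between them. That role concerns the receptor protein, whereas the values here are transcript levels.

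Levels are given in TPM, a transcript abundance that divides by transcript length and by the library total, so genes can be compared within a library. The number of reads behind each value is unknown, because TPM keeps none. EIF3F measured 991 TPM in shCON against 17.0 TPM in shEIF3F, or 1.72% of the control level, the direction that the labels give. All 10 luminal prostate markers examined had a mean of 1 TPM or more. The basal markers KRT5 and TP63 were listed at 0 in both libraries, and the 4 endothelial markers did not exceed 0.05 TPM. The fibroblast genes LUM and DCN were present at up to 24.3 TPM, and PDGFRA was listed at 0. Of the immune and neuroendocrine markers, PTPRC did not exceed 0.11 TPM and INSM1 was listed at 0, while SYP was lower in shEIF3F (11.3 and 2.16 TPM). The 100 most abundant genes took 45.6% of TPM in shCON and 59.8% in shEIF3F. For the 13308 genes that averaged at least 1 TPM, called all genes below, the log2 ratio of shEIF3F to shCON, taken after adding 1 TPM to both values, had a median of -0.36. This scale understates the difference of genes near 1 TPM. A ratio given after centring has that median subtracted, and a ratio given within GC bins has instead the median of genes with similar transcript GC content subtracted. Genes at -1 or less, or 1 or more, are called at least 2-fold lower or higher, a rule of size and not a test.

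Of the 10 genes, 7 reached a mean of 1 TPM, each with 1 TPM or more in both libraries. JAG2 was at least 2-fold lower in shEIF3F, 0 were at least 2-fold higher, and NOTCH1, NOTCH2, ADAM10, RBPJ, DTX2 and HES1 differed by less than 2-fold. Among all genes, 25.5% were at least 2-fold lower and 8.44% at least 2-fold higher, so 1 of 7 lower is not a larger share than that of all genes. The log2 ratio was below 0 for 5 of the 7, against 65.3% of all genes. The median log2 ratio was -0.54 over the 7 genes, beside -0.36 for all genes at that level. Over all 10 it was -0.42, with the low genes NOTCH3 at 0.25, JAG1 at 0.14 and HEY1 at -0.71. The added 1 TPM draws the ratios of these 3 genes towards 0.

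**Figure D1:**
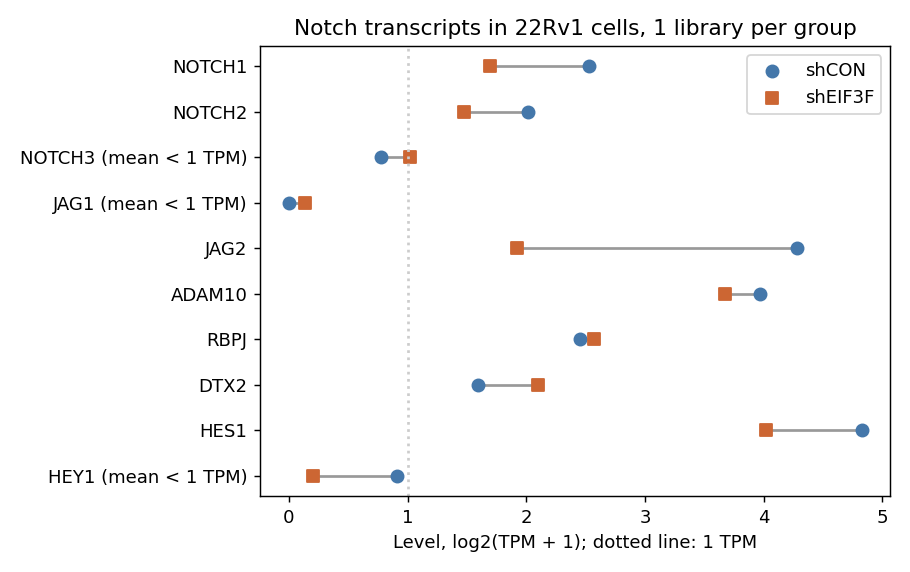
Level of each of the 10 Notch transcripts, as log2(TPM + 1), in the shCON library (circles) and the shEIF3F library (squares), with a line joining both values of a gene. JAG2 has the longest line, from 18.5 to 2.78 TPM, and NOTCH3, JAG1 and HEY1 have a mean under 1 TPM.

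The receptors were present at low levels. NOTCH1 measured 4.78 TPM in shCON against 2.23 TPM in shEIF3F, and NOTCH2 at 3.05 and 1.78 TPM. NOTCH3 was close to 1 TPM in both, at 0.71 and 1.03. The order NOTCH1, NOTCH2, NOTCH3 was thus the same in both libraries, with a narrower range in shEIF3F. NOTCH4, which is not one of the 10 genes, was below all 3 at 0.42 and 0.31 TPM. Summed over the 4 receptors, the level was 8.96 TPM in shCON against 5.35 TPM in shEIF3F, or 59.7% of control. The share of NOTCH1 in that sum was 53.3% in shCON and 41.7% in shEIF3F, while that of NOTCH3 was 7.92% and 19.3%.

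On the ratio scale NOTCH1 stood at -0.84 and NOTCH2 at -0.54, both under 2-fold. Without the added 1 TPM, NOTCH1 was at 46.7% of its control level, just past 2-fold, and with 0.1 TPM added its log2 ratio was -1.07. Of all genes, 30.8% had a lower ratio than NOTCH1 and 42.2% a lower ratio than NOTCH2. The NOTCH2 value is uncertain because its first exons have near-identical copies in the NOTCH2NL genes: NOTCH2NLA was listed at 5.32 and 5.52 TPM, above NOTCH2 itself, and reads can be split between them.

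Of the ligands, JAG2 was the most abundant and JAG1 was listed at or near 0. Both encode Jagged proteins, transmembrane ligands of Notch receptors. JAG2 measured 18.5 TPM in shCON against 2.78 TPM in shEIF3F, a level 6.64-fold lower. Its log2 ratio was -2.36, and 4.13% of all genes had a lower one. JAG1 was listed at 0 in shCON and at 0.1 TPM in shEIF3F. In shCON the JAG2 level was 3.86 times that of NOTCH1, and in shEIF3F 1.25 times.

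The Delta-like ligands, which were not among the 10 genes, had low levels in shEIF3F. DLL3, a ligand known to inhibit Notch signalling from within the same cell, stood at 6.93 and 0.75 TPM. Its log2 ratio was -2.18, or -1.04 within GC bins. DLL1, an activating ligand, stood at 1.36 and 1.0 TPM (-0.24, but 0.12 after centring and 0.51 within GC bins). DLL4 did not exceed 0.03 TPM. Over the 5 ligands the summed level was 26.8 TPM in shCON against 4.66 TPM in shEIF3F, or 17.4% of control, against 59.7% for the receptors. JAG2 made up 69.0% of that sum in shCON and 59.7% in shEIF3F.

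The bases just before the start of JAG2 are printed to show the sequence at the ligand gene with the lowest ratio. They are credited to RefSeq, build GRCh38.p14, chr14:105168777-105169026, minus strand, and run 5′ to 3′ over the 250 bases before the annotated start. GC makes up 81.6% of them, and they do not hold the letters TGGGAA on either strand, the core that RBPJ is known to bind.
JAG2: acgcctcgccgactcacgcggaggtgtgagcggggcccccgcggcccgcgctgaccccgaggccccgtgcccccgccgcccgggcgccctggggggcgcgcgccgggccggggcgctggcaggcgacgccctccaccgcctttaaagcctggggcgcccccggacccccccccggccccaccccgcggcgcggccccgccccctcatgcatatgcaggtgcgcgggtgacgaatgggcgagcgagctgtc

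JAG2 shares exon sequence with an unnamed gene on the same strand, AL512356.1, listed at 0.76 TPM in shCON against 1.91 TPM in shEIF3F. That entry was higher in shEIF3F, opposite to JAG2, and its part in the JAG2 value was not tested. JAG2 kept at least a 2-fold lower value in each of the 9 alternative treatments of the data, between -2.69 and -1.45. Among these, a change of the filter on TPM cannot alter the ratio of a gene. Taking the most abundant entry of a symbol also left JAG2 at -2.36.

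**Figure D2:**
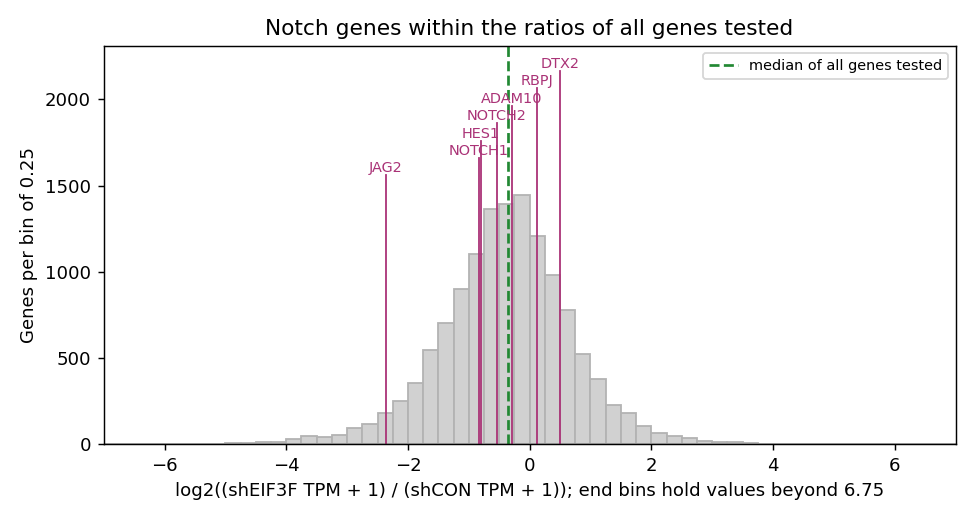
Number of genes per bin of 0.25 in log2 ratio over all 13308 genes that averaged at least 1 TPM (grey bars), with the 7 Notch genes of that level marked by lines and the median of all genes, -0.36, by a dashed line. JAG2 at -2.36 lies in the lower tail, and the other 6 lie between -0.84 and 0.50.

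ADAM10, RBPJ and DTX2 act between ligand binding and the target genes. ADAM10, the protease that makes the ligand-induced cut, measured 14.6 TPM in shCON against 11.7 TPM in shEIF3F (log2 ratio -0.29), and its direction turned when the median of all genes was subtracted (0.063). A gene on the opposite strand that shares exon sequence with ADAM10, AC018904.1, was listed at 0 and 0.41 TPM. RBPJ, the factor that carries Notch to DNA, stood at 4.47 and 4.93 TPM (0.12). RBPJ was thus a little above its control level, while both abundant receptors and HES1 were below theirs. Of all genes, 52.5% had a lower ratio than ADAM10 and 69.9% a lower ratio than RBPJ.

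DTX2 encodes a Deltex ubiquitin ligase that acts on Notch. It measured 2.02 TPM in shCON against 3.28 TPM in shEIF3F, a log2 ratio of 0.50, the highest of the 7. It was at least 2-fold higher in 1 alternative treatment, in which the median of genes of similar GC content was subtracted (1.26). DTX2 has no value in the treatment that requires a mean of 5 TPM. Near-identical copies of part of the gene make this value uncertain: DTX2P1-UPK3BP1-PMS2P11 was listed at 3.78 and 3.84 TPM, above DTX2 in both libraries. Its relative DTX1, named here after its values were seen, stood at 1.6 and 0.48 TPM (-0.81, but 0.10 within GC bins), so that the level of DTX2 was 1.26 times that of DTX1 in shCON and 6.83 times in shEIF3F.

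HES1 was the most abundant of the 10 genes in both libraries. It encodes a basic helix-loop-helix repressor and is the best known direct target of Notch. HES1 measured 27.4 TPM in shCON against 15.3 TPM in shEIF3F, or 55.7% of control (log2 ratio -0.80, with 31.8% of all genes lower). Relative to the median of all genes the HES1 ratio was -0.45. HEY1, a related repressor, was under 1 TPM in both libraries, at 0.88 and 0.15. HES1 was 5.73 times the NOTCH1 level in shCON and 6.84 times in shEIF3F.

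The other HES genes and NRARP, which encodes a feedback inhibitor of Notch, were mostly further down than HES1 as deposited, though not within GC bins. HES7, known as an oscillating gene of the segmentation clock, measured 17.9 TPM in shCON against 0.68 TPM in shEIF3F (log2 ratio -3.49). HES6, a relative known to counteract HES1, stood at 16.9 and 1.55 TPM (-2.81). HES4 stood at 33.4 and 9.81 TPM (-1.67), and NRARP at 10.3 and 2.97 TPM (-1.51). HES2 had low values of 1.62 and 0.83 TPM (-0.52). HES5, HEY2 and HEYL did not exceed 0.23 TPM. In shCON, HES4 was thus the most abundant of the family and HES1 followed, whereas in shEIF3F HES1 was first and made up 48.5% of the summed level of the 10 HES, HEY and NRARP genes, against 25.2% in shCON.

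Of these 10 HES, HEY and NRARP genes, 6 had a mean of 1 TPM or more. Of the 6, 4 (HES7, HES6, HES4 and NRARP) were at least 2-fold lower and 0 higher, beside 25.5% lower among all genes. The same count was 4 when the median of all genes was subtracted, where 16.0% of all genes were lower and 14.7% higher. It was 2 (HES7 and HES6) within bins of GC content, where 13.9% of all genes were lower and 13.3% higher. In that form HES4 stood at -0.52, NRARP at -0.36 and HES2 at -0.064, all above HES1 at -0.60. HES7 at -2.58 and HES6 at -1.66 stayed below HES1. HES7 and HES2 reached the minimum mean through shCON alone.

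The 250 bases before the start of HES1 and of HES4 are shown because both hold the RBPJ core, written in capitals, in the same short context. The bases are those of RefSeq, build GRCh38.p14, 5′ to 3′ on the gene's strand: chr3:194135898-194136147, plus strand, for HES1, and chr1:1000098-1000347, minus strand, for HES4.
HES1: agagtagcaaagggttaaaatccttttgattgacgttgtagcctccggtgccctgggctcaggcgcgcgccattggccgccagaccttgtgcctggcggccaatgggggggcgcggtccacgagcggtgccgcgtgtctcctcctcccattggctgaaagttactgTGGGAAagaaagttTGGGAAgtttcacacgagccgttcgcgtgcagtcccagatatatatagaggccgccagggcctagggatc
HES4: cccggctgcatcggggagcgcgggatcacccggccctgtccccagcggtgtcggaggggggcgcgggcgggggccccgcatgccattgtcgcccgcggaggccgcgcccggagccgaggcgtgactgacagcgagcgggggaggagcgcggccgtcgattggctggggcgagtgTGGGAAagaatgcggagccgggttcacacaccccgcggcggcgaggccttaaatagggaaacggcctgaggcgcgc

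The window of HES1 held TGGGAA at 84 to 79 and again at 70 to 65 bases before the start, and that of HES4 held it at 76 to 71 bases before the start. The first of the HES1 matches and the HES4 match lie in a shared stretch of 12 bases, tgTGGGAAagaa. Searching TGGGAA on both strands (TTCCCA on the other) in the 250 bases before each annotated start, 20.8% of 35116 promoters in the RefSeq table held at least 1 match and 2.9% held 2 or more. Of the 18 genes searched (the 10 described plus the other HES, HEY and NRARP genes), 17 were matched to the table, all but HEY1, and 7 of their 21 windows held a match. Log2 ratios were -0.80 for HES1 with 2 matches and -1.67 for HES4 with 1. DTX2, with 1 match, stood at 0.50. RBPJ, which has several of the windows, held 2 matches in 1 of them and stood at 0.12. HES5, HEY2 and HEYL also held matches, and each had a mean under 1 TPM. The windows of HES2, NRARP, HES6 and HES7 held none, and their log2 ratios were -0.52, -1.51, -2.81 and -3.49, a range that spans those of HES1 and HES4. A match describes these letters only and shows no binding.

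**Figure D3:**
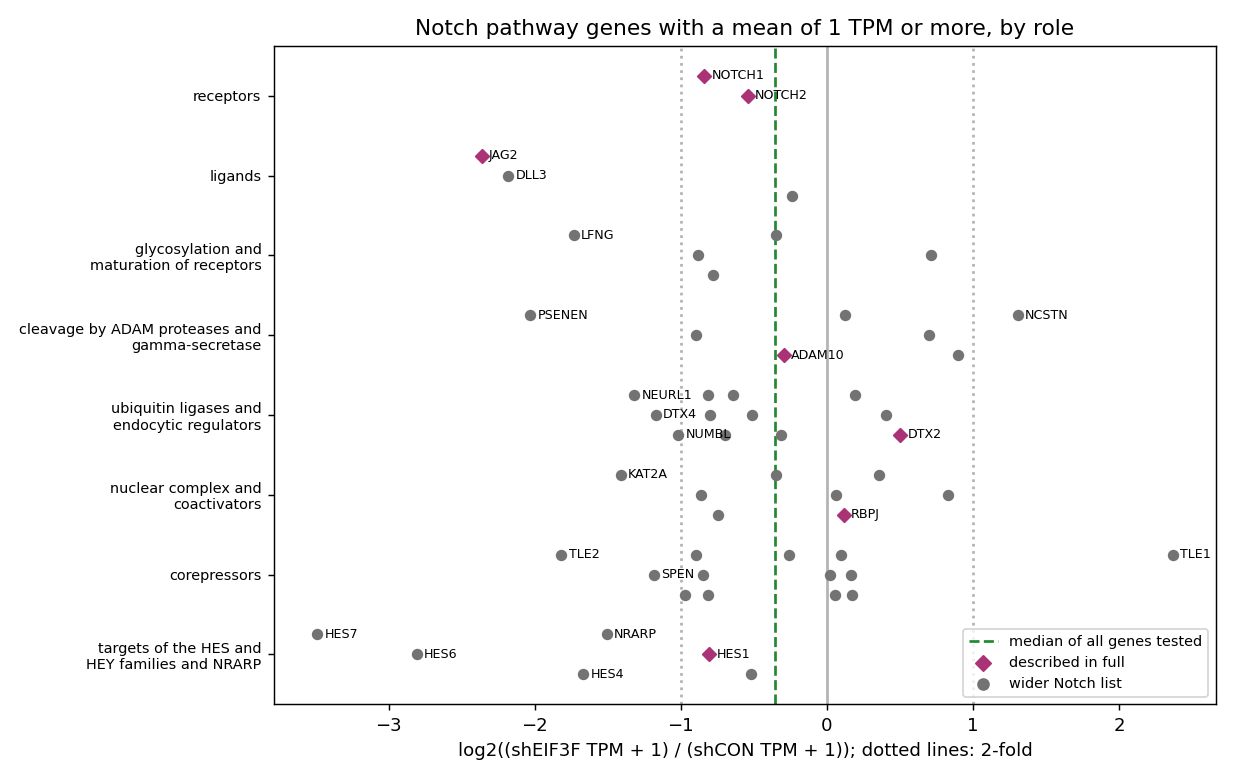
Log2 ratio of shEIF3F to shCON for the 56 genes of a wider Notch list with a mean of 1 TPM or more, in rows by role, with diamonds for the genes described in full, circles for the others, dotted lines at 2-fold and a dashed line at the median of all genes. Ligands and HES or NRARP genes reach furthest down (JAG2 -2.36, HES7 -3.49), and TLE1 at 2.37 is furthest up.

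A wider list of 68 Notch pathway genes, which includes the 10, gives the setting. Of these, 56 had a mean of 1 TPM or more, and 14 of the 56 (25%) were at least 2-fold lower and 2 (3.57%) at least 2-fold higher, beside 25.5% and 8.44% of all genes. The share of lower genes was therefore that of all genes. The genes at least 2-fold higher were 12.5% of those past 2-fold as deposited, 37.5% after centring on the median of all genes (10 lower and 6 higher) and 58.3% within GC bins (5 lower and 7 higher). The same split for all genes was 24.8%, 47.9% and 48.8%. The median log2 ratio was -0.67 over the 56 genes, beside -0.36 for all genes, and -0.35 over all 68. The 68 include 12 genes of low level, whose ratios lay between -0.71 (HEY1) and 0.35. Of the 56, 7 had 1 TPM or more in shCON alone, among them DLL3, LFNG, NEURL1, DTX4 and HES7 of the lower genes.

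Enzymes that modify or cut the receptor went in several directions. LFNG, a Fringe glycosyltransferase that tunes the response to ligands, measured 2.79 TPM in shCON against 0.14 TPM in shEIF3F (log2 ratio -1.73, or -0.82 within GC bins). RFNG, another Fringe, stood at 26.7 and 14.04 TPM (-0.88, but 0.26 within GC bins), and POGLUT1, which adds glucose to the receptor, at 3.44 and 1.59 TPM (-0.78). ADAM17, which can also cut Notch, stood at 3.28 and 6.98 TPM (0.90), or 1.26 relative to all genes.

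Subunits of gamma-secretase, which act in 1 complex, differed in opposite directions. NCSTN, the substrate-binding subunit nicastrin, measured 52.2 TPM in shCON against 130.5 TPM in shEIF3F (log2 ratio 1.31). PSENEN, a small subunit of the complex, stood at 96.5 and 22.9 TPM (-2.03). NCSTN was at least 2-fold higher and PSENEN at least 2-fold lower also after centring (1.66 and -1.67) and within GC bins (1.59 and -1.75). Both share exons with genes on the opposite strand, COPA for NCSTN at 72.5 and 58.9 TPM and U2AF1L4 for PSENEN at 16.2 and 16.5 TPM. The use of strand in counting is not given, so reads of such pairs cannot be told apart. PSENEN also shares exons with AD000671.1 on the same strand, and the part of that gene in the PSENEN value was not tested. The subunits PSEN2 (0.70) and APH1A (-0.90), named here after their values were seen, were within 2-fold, although PSEN2 was past it after centring (1.06) and within GC bins (1.22).

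Among ubiquitin ligases and endocytic regulators, 3 of the 12 that averaged at least 1 TPM were at least 2-fold lower, a share of 25% beside 25.5% of all genes. They were NEURL1, a ligase for ligands, at 2.29 TPM in shCON against 0.32 TPM in shEIF3F (log2 ratio -1.32), DTX4 (-1.17) and the Numb relative NUMBL (-1.02). All 3 were within 2-fold after centring (-0.96, -0.81 and -0.66). Among 8 nuclear complex and coactivator genes, the acetyltransferase KAT2A was the only one at least 2-fold lower (12.5%, beside 25.5% of all genes), at 49.8 and 18.1 TPM (-1.41), although by less than 2-fold within GC bins (-0.69) or with the libraries rescaled without the 100 most abundant genes (-0.99). Its relative KAT2B stood at 1.05 and 2.65 TPM (0.83, or 1.19 after centring). The coactivator MAML1 stood at 10.99 and 5.59 TPM (-0.86).

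Of 13 corepressor genes, 2 (15.4%) were at least 2-fold lower and 1 (7.69%) higher, beside 25.5% and 8.44% of all genes. TLE1 and TLE2 encode Groucho-type corepressors that HES proteins recruit. TLE1 measured 1.62 TPM in shCON against 12.5 TPM in shEIF3F, a log2 ratio of 2.37 with 99.0% of all genes lower. TLE2 stood at 40.3 and 10.7 TPM (-1.82, and -0.90 within GC bins). TLE2 was thus 24.9 times the level of TLE1 in shCON and 0.857 times in shEIF3F. SPEN, a corepressor that binds RBPJ, stood at 15.4 and 6.22 TPM (-1.18, or -0.83 after centring).

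**Figure D4:**
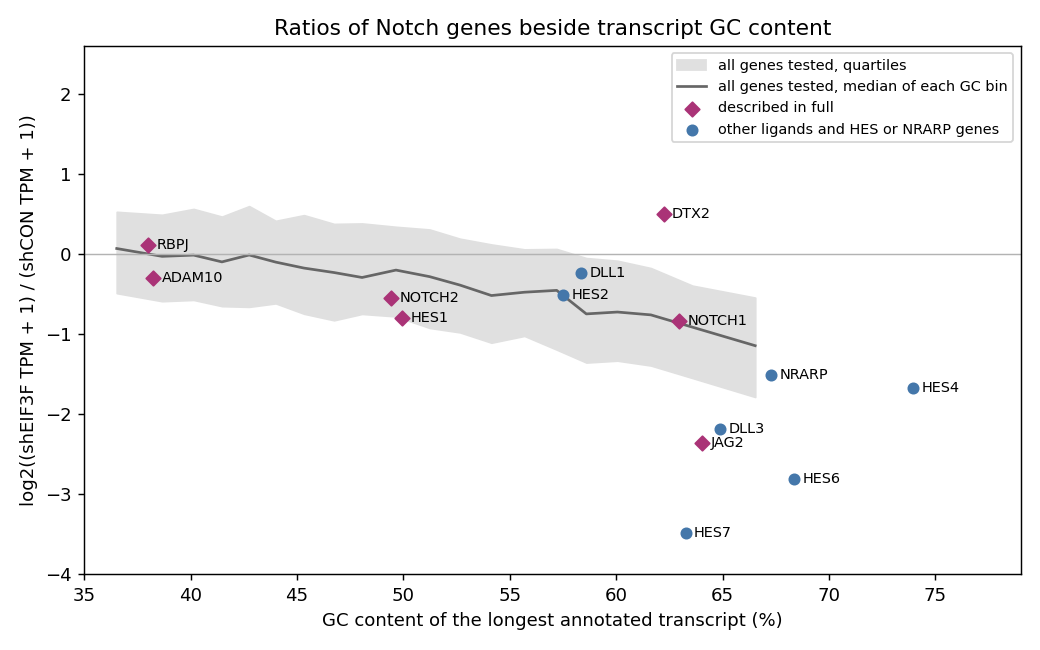
Log2 ratio of shEIF3F to shCON against the GC content of the longest annotated transcript, for the Notch genes described in full (diamonds) and other ligands and HES or NRARP genes (circles), over the median (line) and quartiles (band) of all genes in 20 bins of GC content. JAG2, DLL3 and HES7 lie below the quartile band, NOTCH1 lies on the median line and DTX2 lies above the band. HES6 lies lower than the band's lower edge, at a GC content past the end of the band.

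Ratios of all genes went with transcript GC content, and the Notch genes differ widely in it. Across 13193 genes, which are not independent replicates, Spearman's rho was -0.316. The median ratio was -0.25 among genes of 45 to 50% GC and -0.84 among those of 60 to 65% GC. JAG2 has 64.0% GC, NOTCH1 62.9%, DTX2 62.2%, HES1 49.9%, NOTCH2 49.4%, ADAM10 38.3% and RBPJ 38.0%. Relative to genes of similar GC content, NOTCH1 stood at 0.074, JAG2 at -1.45, HES1 at -0.60, NOTCH2 at -0.34, ADAM10 at -0.27, RBPJ at 0.15 and DTX2 at 1.26. The direction of NOTCH1 thus turned, and JAG2 remained at least 2-fold lower. The part of GC content in these ratios was not tested further.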

How the data were processed

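Per the labels' protocols, total RNA was extracted with Trizol and sequenced from Illumina TruSeq libraries. The authors deposited TPM per gene, rounded to 2 decimals. Per the submitters' processing notes, CASAVA, HISAT2 and build hg19 were used. The counter, the annotation, strand use and filters were not given in the sources used here. Columns were matched to groups by sample descriptions.

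Of 58884 entries, 1533 share a symbol with an earlier entry and were added to it. Left out were 27 entries whose symbols had become dates and 5553 symbols of small RNA genes by GENCODE 29 gene type. GENCODE 29 also gave GC content, transcript length and exon overlap. RefSeq promoter windows were matched by symbol. Each log2 ratio sets shEIF3F TPM plus 1 over shCON TPM plus 1, for genes that averaged at least 1 TPM. Depth is unknown, so no interval was computed. The 10 genes, the wider list, its roles and the thresholds were chosen with earlier results of these data known. Besides the 10 genes, the rule named up to 3 genes per role with the largest absolute ratio, and every receptor, ligand and HES, HEY or NRARP gene. Some genes that were covered are not reported here. Alternatives changed the pseudocount, the filter, the scaling, repeated symbols, and GC or TPM bins. Calculations used Python 3.11.15, NumPy 2.4.6, pandas 2.3.3, SciPy and matplotlib 3.10.9, tested on simulated data.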

Additional observations from a re-analysis of the deposited data

How the results depend on the processing

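With 1 library per group no replicate could be left out, and depth limits are unknown because TPM keeps no read number. No paired analysis was possible because each group has 1 library. Over 9 alternatives, 100 of 116 values kept their direction and their side of 2-fold, or for counts stayed within 1.5 times. The 100 include 16 values without a filter and 13 from the most abundant entry of a symbol, all identical to the main values. Ratios of single genes also cannot change with a stricter filter. After centring 10 values were kept and 3 moved, and within bins of GC content 8 were kept, 4 moved and 1 passed 2-fold. With a pseudocount of 0.1, NOTCH1 stood at -1.07, which made 2 of the 10 genes at least 2-fold lower, and 4 of the wider list were at least 2-fold higher. With a pseudocount of 5, which pulls low genes towards 0, 8 of the wider list were at least 2-fold lower. Centring on the median of all genes gave ADAM10 a ratio of 0.063, with 6 genes of the wider list at least 2-fold higher. The median of the wider list was then 0.0095 over all 68 genes, but -0.31 over the 56 with a mean of 1 TPM or more. Rescaling without the 100 most abundant genes gave 0.11 for ADAM10 and 6 higher genes, and centring within 20 bins of mean TPM gave 0.064 and 6. Within 20 bins of GC content NOTCH1 stood at 0.074 and DTX2 at 1.26, so that 1 of the 10 genes was at least 2-fold higher, and in the wider list 5 were lower and 7 higher. Centring and rescaling shift all ratios upwards by construction; the cause of the changes within GC bins was not tested.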

Other observations

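The balance between related genes of the pathway differed between the libraries in several roles. ADAM10 was 4.46 times the level of ADAM17 in shCON and 1.68 times in shEIF3F, while the sum of both, as deposited, was 17.9 and 18.7 TPM. The 5 Deltex genes also had similar sums, 17.0 TPM in shCON and 18.4 TPM in shEIF3F, although DTX1 and DTX4 were lower and DTX2, DTX3 and DTX3L higher in shEIF3F as deposited. NCSTN was 0.54 times the level of PSENEN in shCON and 5.71 times in shEIF3F. TLE3 held a similar share of the summed level of the 4 TLE genes, 41.8% and 40.8%, while TLE1 went from 2.15% to 29.9%. Ratios and shares within a library do not depend on how the libraries are scaled. They were chosen after the values were seen, and with 1 library per group none was tested.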
